A study of Mus musculus with 89 samples.

Results

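Lachnospiraceae is a family of the class Clostridia, and 203 of the 4065 sequence variants counted in these mouse feces carried that family name. A sequence variant is a distinct sequence of the V3-V4 region of the bacterial 16S rRNA gene, and members were chosen by the family name in the deposited taxonomy table, matched to the count table by sequence. The table named 434 variants, which held 98.5% of all reads, and the 203 Lachnospiraceae variants held 25.5%. A genus name was given to 118 of them, over 17 genera, and 85 (41.9%) had none. Each variant is called here by ASV and its row number in the deposited count table.

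The samples came from adult male C57Bl/6j mice of a traumatic brain injury study, in which controlled cortical impact (CCI, a piston striking the exposed cortex) was given to 7 mice and a sham craniotomy without impact to 6. Before surgery the bowel of every mouse, sham mice included, was cleared with polyethylene glycol and then inoculated repeatedly with 1 common pool of cecal contents. Bedding was mixed among all cages before surgery and only within each injury group afterwards, when mice were housed by injury group. Feces were taken once before injury and 6 times after it, on each of the first 3 days and then at 1 wk, at 2 wk and at 4 wk, for 40 sham and 49 CCI samples. The columns of the count table name a time and an animal number but no injury group, so sham and CCI mice were pooled, and a change over time below is a change in all 13 mice together. There is no set of mice without surgery, so the effects of surgery, housing and elapsed time cannot be told apart. Each time had 13 samples except 3 d and 2 wk, which had 12, and totals ran from 10266 to 201686 reads per sample with a median of 78985.

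Lachnospiraceae are strict anaerobes of the mammalian large bowel that ferment dietary fibre and mucus sugars to short-chain fatty acids. Some genera, such as Roseburia and Anaerostipes, make butyrate, which colon epithelial cells burn as fuel. Others, such as Blautia and Marvinbryantia, include acetogens, which make acetate. Many mouse members carry placeholder names such as NK4A136 group or UCG-006. All values are relative: a percent of reads can fall because the family fell or because other bacteria rose.

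Lachnospiraceae had the lowest mean percent of reads at 1 wk, but the drop from pre-injury did not pass the test. Before injury the family held 28.2% ± 13.6 of reads (mean ± SD, n = 13), with a lowest sample of 8.64%, a median of 26.0% and a highest of 50.4%. At 1 d it held 26.6% ± 11.7, at 2 d 28.4% ± 8.31 and at 3 d 23.3% ± 7.46. At 1 wk it held 18.7% ± 6.66, between 8.06% and 34.2% with a median of 18.0%. It then stood at 21.8% ± 8.19 at 2 wk and 24.0% ± 11.6 at 4 wk. The groups overlapped at every time, and the pre-injury samples were themselves the most spread of the 7 times.

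The 1 wk mean was 9.50 percentage points below the pre-injury mean. That gave p = 0.0341 in a 2-sided permutation test and p = 0.205 after Benjamini-Hochberg adjustment over the 6 later times, so the difference did not pass. Within animals, 9 of 13 animal numbers were lower at 1 wk than before injury and 4 were higher, with an exact sign-flip p of 0.0168 and an adjusted p of 0.101. No other time came nearer: the adjusted permutation p lay between 0.523 and 0.954 at the other 5 times. Counts summed by family gave a log2 change of -0.59 at 1 wk (SE 0.22, adjusted p = 0.123 by edgeR's quasi-likelihood test), and -0.57 with the animal number as a block (edgeR adjusted p = 0.0504). Lachnospiraceae was called at none of the 6 later times in either fit. Of the 26 families tested, 0% were called at 1 d, 3 d and 1 wk and 3.85% at 2 d, 2 wk and 4 wk, and at 1 wk 6 had an unadjusted p under 0.05. With the block the shares were 7.69% at 2 d, 11.5% at 2 wk and 3.85% at 4 wk. Each animal was also left out in turn at 1 wk. Without the animal with the largest rise, of 9.75 percentage points, the mean change was -11.1 points, with an exact sign-flip p of 0.00684. The adjusted p was then 0.0410 where it stays the lowest of the 6. Leaving out the animal that went most against the fall must enlarge the mean fall, so the 0.0410 is not evidence of a drop. Leaving out any of the other 12 gave a mean change between -10.6 and -7.92 points and an adjusted p of at least 0.0762.

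**Figure D1:**
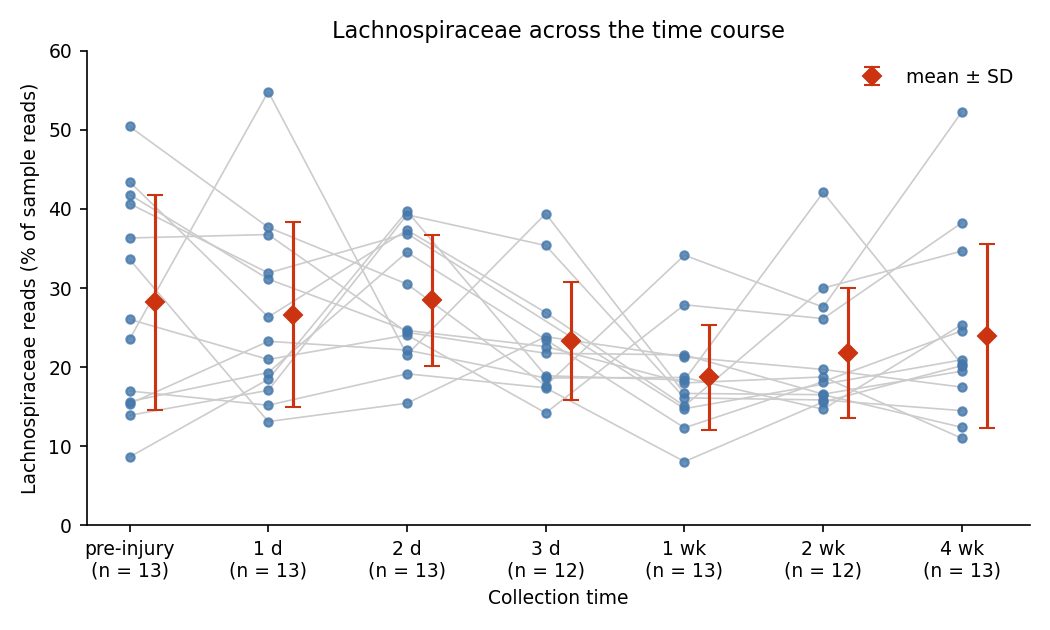
Lachnospiraceae reads as percent of all reads of the sample (vertical axis) at the 7 collection times; blue points are samples, grey lines join samples of 1 animal number, and red diamonds with bars are means ± SD. The 1 wk mean of 18.7% is the lowest, and every time overlaps the pre-injury samples, which run from 8.64% to 50.4%.

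Within the class Clostridia the share of Lachnospiraceae did not separate from its pre-injury level. The family held 72.8% ± 10.9 of Clostridia reads before injury, 70.0% ± 7.28 at 1 wk and 77.0% ± 4.38 at 4 wk, and this share differed from pre-injury at none of the 6 later times (lowest adjusted permutation p = 0.655; the lowest unadjusted p was 0.192). At 1 wk Oscillospiraceae, the next largest family of the class, held 2.12% ± 1.25 against 3.50% ± 1.94 before injury, with a log2 change of -0.72 (SE 0.32). Ruminococcaceae held 2.01% ± 1.09 against 3.03% ± 0.923, with a log2 change of -0.59 (SE 0.30). The Clostridia variants with no family name held 2.51% ± 1.77 against 1.81% ± 1.35, with a log2 change of 0.47 (SE 0.34). Muribaculaceae, the largest family outside the class and a group of fibre-degrading Bacteroidia, held 41.2% ± 5.64 at 1 wk against 34.8% ± 3.35, with a log2 change of 0.24 (SE 0.11). None of these 4 passed the adjustment over the 26 families (edgeR adjusted p of 0.176, 0.203, 0.332 and 0.176). Of the 10 other sums within Clostridia that were tested, 5 had a negative and 5 a positive log2 change at 1 wk, among them the family UCG-010 at 0.73 (SE 0.35, edgeR adjusted p = 0.176), and none was called.

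Within an animal the family swung widely. The highest sample of an animal number was 1.73 to 4.87 times its lowest, with a median of 2.80 times over the 13 animals. The lowest sample was the 1 wk one in 4 animals, and the highest was the pre-injury one in 4 and the 4 wk one in 4. Differences between animals took up a share of 0.14 of the variance of the family percent around the time means, where 1 would mean that animals kept fixed levels. That share was larger for several of its genera, at 0.46 for Marvinbryantia, 0.44 for A2 and 0.35 for Anaerostipes. It was 0.11 for Lachnoclostridium.

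2 sets of variants held most of the family at every time. The NK4A136 group, a genus with a placeholder name and 33 variants, held 8.45% ± 4.39 of reads over all 89 samples and ran from 0.515% to 22.5%. The 85 variants with no genus name together held 7.86% ± 2.74. Lachnoclostridium, a broad genus of former Clostridium species, held 1.94% ± 1.22 over 20 variants, A2 held 1.67% ± 1.46 over 5, Roseburia 1.36% ± 1.27 over 18, and UCG-006 1.01% ± 0.809 over 6. The other 12 genera each had a mean under 0.5%: ASF356, Blautia, Acetatifactor, UCG-001, Marvinbryantia, GCA-900066575, Anaerostipes, Tyzzerella, the FCS020 group, UCG-004, the Lachnospiraceae genus UCG-010 and Tuzzerella. The lowest, Tuzzerella, had a mean of 0.00704% and no reads in 42 of 89 samples.

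**Figure D2:**
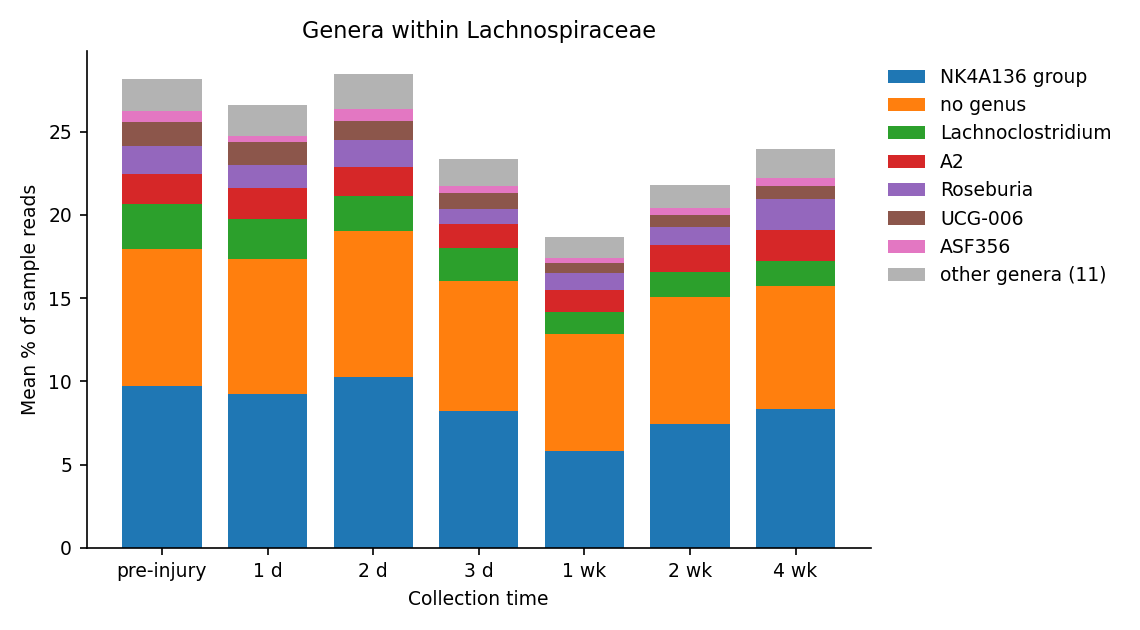
Mean percent of sample reads (stacked bars, starting at 0) of the 6 most abundant genera of Lachnospiraceae and of the variants with no genus name at each time, with the other 11 genera summed in grey. The NK4A136 group and the variants with no genus name make up most of each bar, and the 1 wk bar is the shortest.

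Within animals, the variants with a genus name fell at 1 wk and the share of the family held by variants without one rose. Named variants together held 19.9% ± 10.6 of reads before injury and 11.7% ± 4.99 at 1 wk, and were lower in 10 of 13 animals (exact sign-flip p = 0.00537, adjusted 0.0322; permutation test between the 2 sets of samples, p = 0.0184, adjusted 0.111). The variants with no genus name held 8.25% ± 3.27 and 6.98% ± 2.52, so their reads did not rise with their share. Variants with and without a name make up the whole family, so the fall and the rise in share are not separate results. The percent of named variants was chosen after seeing the data, and each adjustment covers only the 6 later times of 1 measure and 1 test. As a share of the family's own reads, the variants with no genus name stood at 31.2% ± 5.89 before injury, between 23.6% and 44.7%, and at 37.9% ± 8.19 at 1 wk, between 27.9% and 58.6%. The ranges overlapped, yet the share was higher at 1 wk in 11 of 13 animals. The mean change within animals was 6.69 percentage points (SD 6.11), with an exact sign-flip p of 0.00244 and an adjusted p of 0.0146, whereas the comparison that ignored animal numbers gave p = 0.0209 and an adjusted permutation p of 0.125. The changes ran from -3.16 points in animal 150 to 15.9 points in animal 160. Leaving out each animal in turn gave exact sign-flip p-values between 0.000977 and 0.00488.

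That shift in share was lost without ASV11, the most abundant variant with no genus name. ASV11 had reads in all 89 samples and held 1.86% ± 0.980 of all reads before injury and 2.65% ± 0.786 at 1 wk, while its share of the family's reads stood at 9.91% ± 8.08 and 15.5% ± 5.81. Before injury that share ran from 0.569% to 26.5% with a median of 9.84%, and at 1 wk from 6.21% to 23.7% with a median of 16.7%, so that the 1 wk samples lacked the lowest values seen before injury. With ASV11 left out of both sums, the share of variants with no genus name was 23.6% ± 2.62 before injury and 26.6% ± 7.90 at 1 wk, a change of 2.97 points that did not pass within animals (exact sign-flip p = 0.227, adjusted 0.915). The alternative without ASV11 was chosen after its values were seen. Its nearest variant with a genus name, in GCA-900066575, was 94.2% identical.

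**Figure D3:**
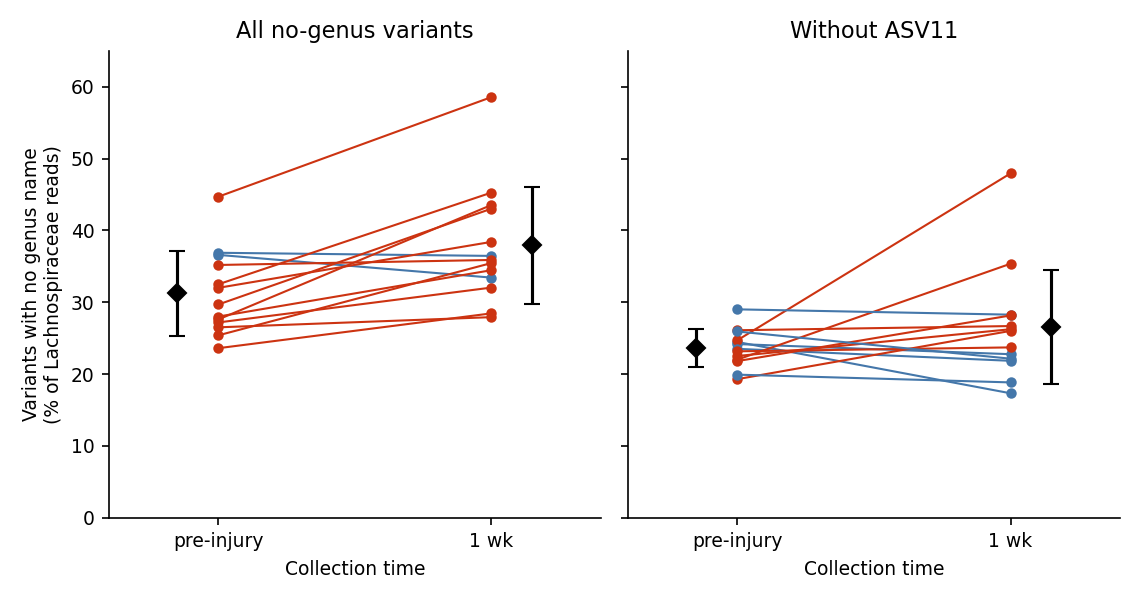
Variants with no genus name as percent of Lachnospiraceae reads (vertical axis) before injury and at 1 wk, with all variants (left) and without ASV11 (right); each line is 1 animal number, red where it rose and blue where it fell, and black diamonds with bars are means ± SD. On the left 11 of 13 lines rise, from a mean of 31.2% to 37.9%; on the right the means are 23.6% and 26.6%.

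By genus, 17 of the 18 sums (17 genera and the variants with no genus name) had a negative log2 change at 1 wk, and 1, Marvinbryantia, had a positive one. Of all 65 genus-level sums tested, 37 were negative at 1 wk. At the other later times 12 of the 18 were negative at 1 d, 10 at 2 d, 15 at 3 d, 16 at 2 wk and 13 at 4 wk. The median of the 18 log2 changes at 1 wk was -0.73, beside -0.30 over all 65. Under column-total scaling, 0 of the 18 were called at any of the 6 later times (edgeR's quasi-likelihood test, adjusted p under 0.05). Over all 65 sums the share called was 0% at 1 d and 3 d, 3.08% at 2 d and 1 wk and 1.54% at 2 wk and 4 wk. At an unadjusted p under 0.05 there were 0 at 1 d and 2 d, 1 at 3 d, 4 at 1 wk and 2 at each of 2 wk and 4 wk, beside 4, 4, 6, 13, 7 and 6 of all 65 at the 6 times in order. The 4 at 1 wk were 22.2% of the 18, against 20% of all 65, a share near the background. DESeq2 called 1 of the 18, at 3 d, where it called 1.54% of all 65. Its share over all 65 was 0% at 1 d, 1.54% at 2 d and 2 wk and 3.08% at 1 wk and 4 wk. Other settings moved these medians at 1 wk. With edgeR's TMMwsp factors the median of the 18 was -0.49, beside -0.10 over all 65, and 17 of the 18 were still negative. DESeq2, which changes the test as well as the size factors, gave a median of -0.39 for the 18, beside 0.02 over all 65. There 15 of the 18 were negative.

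Taking the animal number into the model as a block, 3 of the 18 were called at 1 wk, beside 7.69% of all 65. Lachnoclostridium held 2.67% ± 1.50 of reads before injury, with a median of 2.44%, and 1.37% ± 0.736 at 1 wk, with a median of 1.29%. Its log2 change was -0.98 with the block (SE 0.30, edgeR adjusted p = 0.0269) and -0.97 without it (SE 0.32, edgeR adjusted p = 0.0752). At 4 wk it held 1.47% ± 0.668, which did not pass (log2 -0.86, edgeR adjusted p = 0.142). UCG-006 held 1.43% ± 0.886 before injury, between 0.187% and 3.14%, and 0.596% ± 0.338 at 1 wk, between 0.0514% and 1.02%. Its log2 change was -1.29 with the block (SE 0.38, edgeR adjusted p = 0.0260) and -1.26 without it (SE 0.46, edgeR adjusted p = 0.0877). 1 variant, ASV17, carried nearly all of UCG-006, at 1.34% ± 0.863 before injury and 0.522% ± 0.330 at 1 wk.

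The NK4A136 group, the most abundant genus, held 9.71% ± 4.94 before injury, between 0.515% and 18.1% with a median of 9.10%, and 5.84% ± 2.74 at 1 wk, between 1.67% and 12.95% with a median of 5.88%. The ranges overlapped and its log2 change was not called, at -0.73 without the block (SE 0.30, edgeR adjusted p = 0.153) and -0.70 with it (SE 0.27, edgeR adjusted p = 0.0900). Its mean share of the family's reads was 33.6% and 31.8%, a difference that was not tested. ASF356, named for a strain of a defined mouse flora, held 0.644% ± 0.591 before injury and 0.313% ± 0.211 at 1 wk (log2 -1.04, SE 0.47, edgeR adjusted p = 0.211). Acetatifactor held 0.364% ± 0.395 and 0.238% ± 0.216 (log2 -0.61, SE 0.55, edgeR adjusted p = 0.456).

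Marvinbryantia went the other way. It held 0.113% ± 0.174 of reads before injury, 0.185% ± 0.238 at 1 d, 0.310% ± 0.315 at 2 d and 0.393% ± 0.431 at 3 d. It stayed at 0.307% ± 0.229 at 1 wk, then 0.238% ± 0.289 at 2 wk and 0.212% ± 0.156 at 4 wk. No reads were found in 3 of 13 samples before injury and in 0 of 12 at 3 d, and the ranges overlapped at every time. At 1 wk its log2 change was 1.95 with the block (SE 0.64, edgeR adjusted p = 0.0388) and 1.44 without it (SE 0.82, edgeR adjusted p = 0.335). At 3 d it was 1.80 without the block (SE 0.84, edgeR adjusted p = 0.379), and DESeq2 called it there with an adjusted p of 0.0497.

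**Figure D4:**
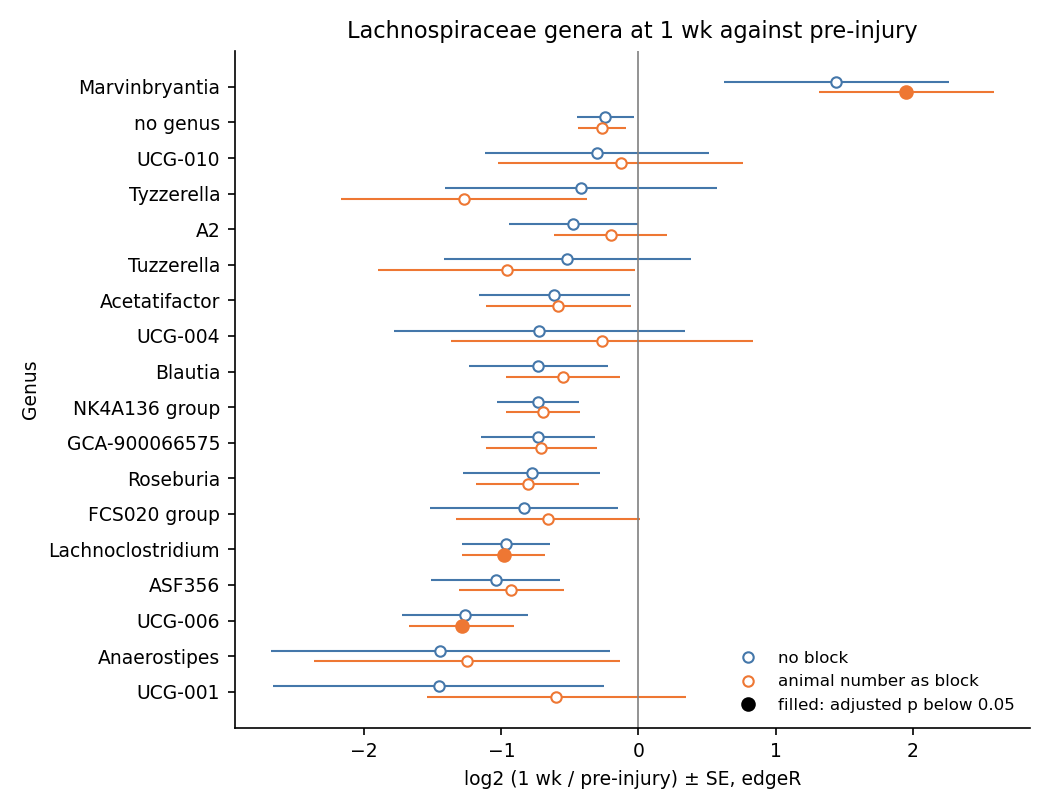
Log2 change at 1 wk against pre-injury ± SE (horizontal axis, edgeR) for the 17 genera and the variants with no genus name, without a block (blue) and with the animal number as a block (orange); filled points have an adjusted p below 0.05. Lachnoclostridium and UCG-006 are filled on the negative side and Marvinbryantia on the positive side, all 3 only with the block.

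Of the genera known for making butyrate, Roseburia and Anaerostipes were present. Roseburia, a motile butyrate producer, held 1.67% ± 1.34 before injury and 0.971% ± 0.960 at 1 wk (log2 -0.78, SE 0.50, edgeR adjusted p = 0.411), and 1.83% ± 2.24 at 4 wk. Anaerostipes, which makes butyrate from lactate and acetate, was a single variant, ASV76. It had reads in 7 of 13 samples before injury, in 6 of 13 at 1 wk and in 13 of 13 at 4 wk, where it held 0.237% ± 0.178 against 0.185% ± 0.305 before injury. At 4 wk it was the 1 sum of the family called with the block, beside 3.08% of all 65 (log2 4.24, SE 1.22, edgeR adjusted p = 0.0285). A permutation test on the percent per sample, which ignored animal numbers, gave p = 0.610. Without the block the log2 change was 0.36 (SE 1.21, edgeR adjusted p = 0.919). Of the acetogens, Blautia held 0.395% ± 0.466 before injury and 0.238% ± 0.159 at 1 wk (log2 -0.73, SE 0.51, edgeR adjusted p = 0.411), opposite in sign to Marvinbryantia. The difference between those 2 genera was not tested.

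Among single variants, a few carried most of the family. ASV7, of the NK4A136 group, held 3.08% ± 2.65 of reads over the 89 samples and with ASV11, at 2.48% ± 1.27, it made 22.8% of the family's reads. The 10 most abundant variants gave 46.5% of the family's reads, 12 gave more than 50%, and the 101 least abundant gave 5.09%. Presence was patchy: 2 variants had reads in all 89 samples, 23 in at least 80, and 108 in fewer than 50% of them, while 76 were seen in all 13 animals. All 203 had reads in some sample before injury, and 198 to 202 had reads at each later time. Each of the 203 had reads in at least 10 samples, and the taxonomy table held no variant with reads in fewer than 9, while the variants it did not name had reads in a median of 1.

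The means of the 10 most abundant variants peaked at different times. ASV7 went from a pre-injury mean of 3.48% ± 3.24 to 2.34% ± 1.69 at 1 wk, with its highest mean of 3.94% ± 2.69 at 2 d, and had no reads in some samples at 5 of the 7 times. ASV11 had its lowest mean before injury and its highest at 3 d, at 3.08% ± 1.45. ASV21, of Lachnoclostridium, held 1.14% ± 1.07 before injury, 0.563% ± 0.549 at 1 wk and 0.301% ± 0.317 at 4 wk, with a highest sample of 3.69% before injury and 0.892% at 4 wk. ASV22, with no genus name and 97.8% identical to the Anaerostipes variant ASV76, held 0.921% ± 0.410 before injury and 0.561% ± 0.278 at 4 wk. ASV18 and ASV24 belonged to A2, and ASV23, ASV25 and ASV28 to the NK4A136 group. None of the 10 was called at any time without the block.

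Without the block, few variants passed edgeR's test at any time, and the 3 that did had few reads. After a filter of at least 10 reads in at least 9 samples, 193 of the 203 variants were tested among 413. Column-total scaling called 0 of the 193 at 1 d, 2 d, 3 d and 1 wk, 2 at 2 wk and 1 at 4 wk (edgeR), all 3 lower than before injury. Over all 413 variants the share called was 0% at 1 d and 3 d, 0.242% at 2 d and 1 wk and 1.21% at 2 wk and 4 wk. At an unadjusted p under 0.05 the family had 2, 7, 8, 10, 9 and 8 variants at the 6 later times in order, beside 8, 17, 29, 25, 23 and 24 of all 413. The family's share was below that of all variants at each time, at 5.18% against 6.05% at 1 wk. DESeq2 called 1 variant at each of 1 d, 2 d and 3 d and 0 at 1 wk, 2 wk and 4 wk. Over all 413 DESeq2 called 0.484% at 1 d and 2 wk, 0.242% at 2 d, 3 d and 4 wk and 0% at 1 wk. With TMMwsp factors 1 variant of the family was called at each of 2 wk and 4 wk, beside 0.969% and 1.21% of all. Without the filter the family had at most 4 calls among 203 at any time, while the share over all 742 variants ran from 7.01% at 1 d through 10.5% at 3 d, 11.2% at 2 d and 2 wk and 12.8% at 1 wk to 13.7% at 4 wk. The median log2 change of the 193 variants was -0.62 at 1 wk, beside -0.41 over all 413, and 148 of the 193 were negative, beside 263 of 413. With TMMwsp factors the medians were -0.30 and -0.11.

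These 3 variants had no genus name. ASV393 had reads in 4 of 13 samples before injury, with a highest value of 0.0641%, and none in the 12 samples at 2 wk, at least 45.2-fold lower when 3 reads over the 2 wk group are taken as the floor (log2 -6.39 in the fit, edgeR adjusted p = 0.0362). ASV449 had 58 reads in 3 of 13 samples and none at 2 wk, at least 16.3-fold lower (log2 -5.28, edgeR adjusted p = 0.0435). ASV331 had 168 reads in 4 of 13 samples and none in the 13 samples at 4 wk, at least 49.6-fold lower (log2 -6.47, edgeR adjusted p = 0.0200). These are pooled bounds that cover counting error only: in permutation tests on the percent per sample the p-values were 0.154, 0.222 and 0.0964. With the animal number as a block none of the 3 was called, at edgeR adjusted p of 0.118, 0.264 and 0.0541.

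The block called other variants instead. It called 12 variants at 4 wk, all with a positive fitted change, beside 4.36% of all 413, 1 at 1 wk (0.484% of all) and 2 at 2 wk (1.45% of all). At 4 wk the block also moved the median log2 change of the 193 variants from -0.15 to 0.35, and the number positive from 85 to 113. Over all 413 that median moved from -0.20 to 0.05. The 2 at 2 wk were ASV43 and ASV466, with permutation p-values of 0.959 and 0.0109. The permutation tests of single variants ignored animal numbers, so they cannot decide a change within animals, which the block fits. ASV78, with no genus name, had reads in 6 of 13 samples before injury and in 12 of 13 at 1 wk, 11 of 12 at 2 wk and 13 of 13 at 4 wk. Its mean was 0.0840% ± 0.176 before injury, 0.162% ± 0.212 at 1 wk, 0.205% ± 0.228 at 2 wk and 0.356% ± 0.460 at 4 wk (log2 4.22, SE 1.03, edgeR adjusted p = 0.00653 with the block; permutation p = 0.0528 on the percent per sample). ASV466, a rare Roseburia variant, had reads in 8 of 13 samples before injury, with 108 reads, in 1 of 13 at 1 wk, with 5 reads, and in 2 of 12 at 2 wk. Its log2 change at 1 wk was -5.71 with the block (SE 1.36, edgeR adjusted p = 0.0151; permutation p = 0.00165). For several of the others the fitted change and the plain means went apart. ASV43, of the NK4A136 group, had a log2 change of 6.16 at 4 wk with the block (SE 1.49, edgeR adjusted p = 0.00653) while its mean was 0.305% ± 0.675 before injury and 0.213% ± 0.190 at 4 wk. It had reads in 5 of 13 and 9 of 13 of those samples, with 1 pre-injury sample at 2.45%, and a permutation test on the percent per sample gave p = 0.856. ASV82, of Lachnoclostridium, had a log2 change of 6.61 (SE 1.55, edgeR adjusted p = 0.00653) with means of 0.240% ± 0.714 and 0.234% ± 0.294 and a permutation p of 0.991. The remaining calls at 4 wk, beside the Anaerostipes variant ASV76, were ASV85, ASV167 and ASV322 of UCG-001, ASV211 of Lachnoclostridium, ASV302 of the NK4A136 group, and ASV117, ASV233 and ASV269 with no genus name. Of these, ASV85 and ASV167 had lower means at 4 wk than before injury, at 0.196% against 0.264% and 0.0664% against 0.0905%. The permutation p-values of the 8 ran from 0.0630, for ASV269, to 0.848, for ASV117.

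The number of Lachnospiraceae variants seen did not separate any later time from pre-injury. With every sample thinned to 10266 reads, 98.4 ± 27.5 variants were seen before injury, 89.2 ± 26.2 at 1 wk and 101 ± 24.9 at 4 wk (lowest adjusted permutation p over the 6 times 0.886, lowest unadjusted p 0.394). The shallowest sample, at 1 d, had 26. Without thinning the counts were 106 ± 29.5, 96.7 ± 30.2 and 107 ± 28.0. Deeper samples still showed more variants after thinning, with a Spearman rho of 0.74 over the 89 samples and of 0.81 without thinning, given as a description. The family percent itself had a rho of 0.28 with the reads per sample, also a description. Thinning was of all reads of a sample, so the number seen also depends on the family percent. The effective number of variants, the inverse Simpson index, which counts how many equally common variants would give the same evenness, was 18.5 ± 7.85 before injury, 14.7 ± 5.37 at 3 d, 16.7 ± 5.51 at 1 wk and 19.4 ± 9.51 at 4 wk (lowest adjusted permutation p 0.784, lowest unadjusted p 0.185). The most abundant variant of a sample held 17.9% ± 4.54 of its Lachnospiraceae reads.

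The 203 sequences were close in length. They ran from 414 to 439 bases, and 126 of them had 414, with a GC content between 49.4% and 61.7% and a median of 54.1%, beside 47.5% to 60.6% and a median of 53.0% in the other Clostridia variants. Pairs from the same genus had a median identity of 94.2%, and pairs from different genera 91.5% with a highest value of 96.9%. Of the 85 variants with no genus name, 53 were at least 95% and 17 at least 97% identical to a named variant, and Lachnoclostridium held the nearest named variant for 46 of them.

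Some variants that differed at 1 base rose and fell as one. There were 43 such pairs, and over the 89 samples their percents had a median Pearson r of 0.69, over 0.8 in 19 pairs and below 0 in 8. ASV7 and ASV23 had r = 0.996 and means of 3.08% and 0.642%, a ratio of 4.79, and reads of both in 75 samples. ASV25 and ASV28 had r = 0.990 and means of 0.651% and 0.628%. The pair ASV64 and ASV80 had r = 0.974, although the table called ASV64 Acetatifactor and gave ASV80 no genus. ASV21 and ASV82, both Lachnoclostridium, had r = -0.27: 57 samples held reads of ASV21 alone, 14 of ASV82 alone and 18 of both. These correlations are descriptions, since the samples share animals and each percent shares its total. Whether a pair is 2 strains, 2 gene copies of 1 genome or a sequencing error was not tested, and variants of a tight pair are not separate evidence of a change.

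**Figure D5:**
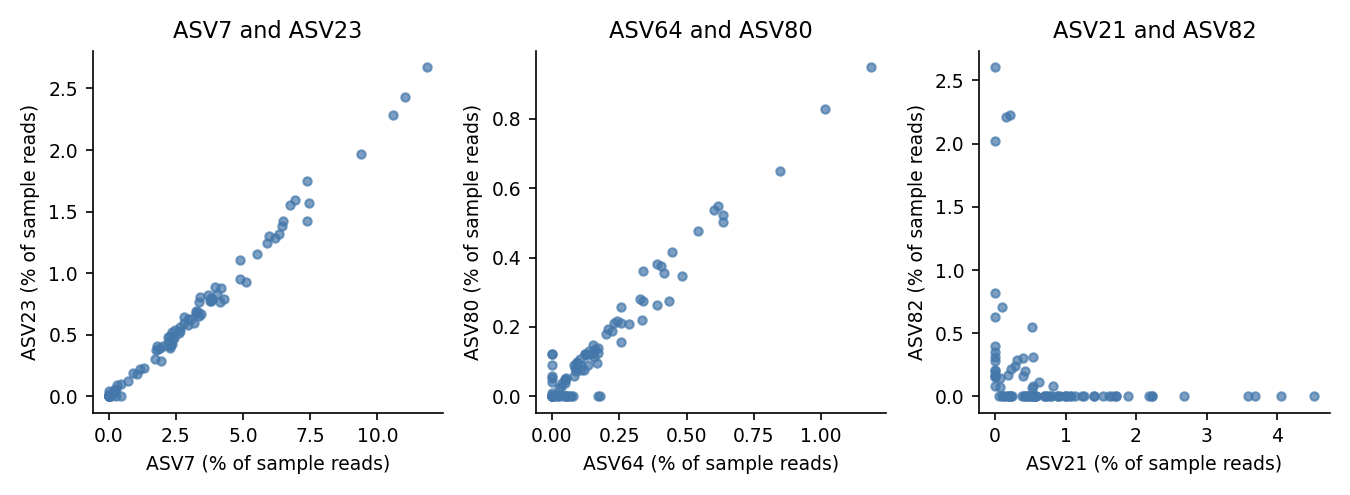
Percent of sample reads of 3 pairs of variants that differ at 1 base, 1 point for each of the 89 samples. ASV7 and ASV23 (r = 0.996) and ASV64 and ASV80 (r = 0.974) lie along a line, while ASV21 and ASV82 (r = -0.27) are mostly found in different samples.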

How the data were processed

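MiSeq reads of the 16S rRNA gene V3-V4 region were filtered, trimmed and joined by the authors, who inferred variants with DADA2, removed chimeras and assigned taxonomy with SILVA, whose release the sources used here give differently. The deposited counts are whole reads per variant and sample. Of 91 columns, 2 were not used: with 137 and 215 reads they fall under the study's minimum of 10000 reads, and without them the 3 d and 2 wk columns match the 12 labelled samples. The deposited sample table gives injury group, cage and extraction batch but names no animal number of the count table, so these were not analysed here. Animal numbers come from the column names and pair the times.

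Percents are of all reads of a sample. Later times were compared with pre-injury by permutation tests (100000 resamples, 2-sided), exact sign-flip tests within animals, and edgeR 4.0.16 quasi-likelihood tests (R 4.3.3) over all 7 times in 1 fit on counts scaled by column totals, with Benjamini-Hochberg adjustment over all taxa. Alternatives used the animal block, TMMwsp, DESeq2 1.42.0 and no filter. Tested on simulated data for 1 wk against pre-injury, edgeR's median estimates were close to the fold changes set. At the variant level it missed most smaller changes and called 3.485% of the unchanged variants. That rate was higher than the share of all variants called with column totals, the filter and no block at any time. Permutation p-values are therefore given for its calls under column totals and the filter, blocked or not, for 8 of them as a range. They ignore animal numbers and so cannot decide a change within animals. SE is the absolute log2 change over the root of F.

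Named were every genus, the 10 most abundant variants, variants called by edgeR with column totals, the filter and no block, and, chosen after their values were seen, those called with it and close pairs. Variants called only by DESeq2 or without the filter were counted and not named. The members and lists were chosen with earlier results of these data known. Bacterial sequences are not printed.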

Additional observations from a re-analysis of the deposited data

How the results depend on the processing

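Over 75 results, 290 of 333 alternative values were labelled the same. For a difference that meant the same direction and side of the threshold, and for a count of calls a value within 1.5 times. A difference short of the threshold in both settings was also labelled the same, and no measure passed the main permutation test at any time. Of the rest, 7 lost the threshold, 7 gained it, 13 changed sign and 16 moved a count by more than 1.5 times. The animal number pairs the samples, and the animal block brought past the threshold the 1 wk share of variants with no genus name (6.69 points), the 1 wk percent of variants with a genus name (-8.23 points), and at 1 wk Lachnoclostridium, UCG-006 and Marvinbryantia. Leaving out each animal in turn left a change in that share of 5.92 to 7.51 points, and without the animal with the largest rise in family percent the unblocked adjusted permutation p was 0.0477. That animal was singled out by its own value, and its removal must enlarge the mean fall in family percent, so the 0.0477 is not evidence of a drop. The block moved the genus-level calls from 0 to 3 at 1 wk and to 1 at 4 wk, and the variant calls to 1 at 1 wk and 12 at 4 wk. DESeq2 called 1 genus-level sum at 3 d, 1 variant at each of 1 d, 2 d and 3 d, and 0 at 2 wk and 4 wk. Without the filter on low counts there was 1 variant call at 1 d and 1 at 1 wk, 3 at 3 d, and 4 at each of 2 wk and 4 wk, among 203, where 7.01% (1 d) to 13.7% (4 wk) of all 742 variants were called, and TMMwsp left 1 at 2 wk. ASV393 and ASV331 lost the threshold with the block and DESeq2, and ASV449 also with TMMwsp.

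The 13 signs that changed in that tally were all of differences that did not pass. Apart from these, ASV43, ASV82, ASV85 and ASV167 were called with a positive fitted change at 4 wk with the block. Their mean percents were lower at 4 wk than before injury. Medians over samples in place of means gave a family percent of -1.41 points at 2 d, a share with no genus name of 2.29 points at 2 d, variants seen of 2.47 at 1 d and -6.48 at 4 wk, and an effective number of -1.71 at 4 wk. As percent of Firmicutes reads the family stood 0.62 points above pre-injury at 3 d. Without ASV11 the share was -0.27 points at 1 d and 0.80 points at 2 d, blocked or not. Without the shallowest sample 4.23 more variants were seen at 1 d. DESeq2 gave 1 wk log2 changes of 0.0193 for the Lachnospiraceae genus UCG-010 (edgeR -0.30) and 0.0321 for the variants with no genus name. The cause was not tested. Leaving out columns under 10000 reads gave no separate value, since none of those used is under it. The settings without ASV11, without the shallowest sample, over the 5 times with 13 samples, by animal left out, by family, as percent of Clostridia and for variants with a genus name were chosen after seeing the data. Counts of single variants were sparse: 108 of 203 had reads in fewer than 50% of samples. How far this limits the variant tests was not tested.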
